A study of Homo sapiens with 118 samples.

Results

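Metallothioneins are small cysteine-rich proteins that bind zinc, copper and cadmium, and their genes were followed here in HepaRG cells exposed to 8 histone deacetylase inhibitors. The genes were chosen by name: MT1A, MT1E, MT1F, MT1G, MT1H, MT1M, MT1X, MT2A and MT3, together with MTF1, which encodes the transcription factor that drives metallothionein genes in response to zinc. A row of the count table was a member when its name, without the trailing probe number, equalled 1 of these 10 symbols. All 10 genes were found, in 12 rows of 22068, since MT1A and MT3 have 2 detector probes each. MT2A, MT1M, MT1E, MT1X and MT1A rose with concentration under most of the inhibitors, MTF1 rose under some of them, and no member row was called as falling at C5. The remaining rows, for MT1F, MT1G, MT1H and MT3 and for the second MT1A probe, had too few counts to be tested in the fit of any single chemical.

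In the liver, metallothioneins buffer free zinc and take up toxic metals. MTF1 senses zinc through its zinc fingers, enters the nucleus and binds short promoter motifs called metal response elements. Glucocorticoids and oxidative stress are also known to raise metallothionein transcripts. MT1 and MT2 genes are active in many tissues, whereas MT3 is known mainly from the brain. The human genes form a cluster on chromosome 16, in the order MT4, MT3, MT2A, MT1L, MT1E, MT1M, MT1JP, MT1A, MT1DP, MT1CP, MT1B, MT1F, MT1G, MT1H, MT1IP and MT1X in the RefSeq annotation of GRCh38.p14, while MTF1 lies on chromosome 1. MT1 genes are so alike in sequence that a probe may capture reads of a neighbouring copy, so each row is named by its gene but may hold some reads of another. Overlapping or antisense transcripts at these genes were not separated either.

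The metal response element core is shown in the promoters because it is the motif through which MTF1 acts on these genes. RefSeq promoters of GRCh38.p14 were given for MT2A, MT1X, MT1H and MTF1. The 250 bases before the transcription start are printed 5′ to 3′ on the gene's strand, with each match to TGCACNC or TGCGCNC, on either strand, in capitals. MT2A lies on the plus strand and its window is chr16:56608334-56608583, MT1X is on the plus strand at chr16:56682220-56682469, and MT1H is on the plus strand at chr16:56669564-56669813.
MT2A: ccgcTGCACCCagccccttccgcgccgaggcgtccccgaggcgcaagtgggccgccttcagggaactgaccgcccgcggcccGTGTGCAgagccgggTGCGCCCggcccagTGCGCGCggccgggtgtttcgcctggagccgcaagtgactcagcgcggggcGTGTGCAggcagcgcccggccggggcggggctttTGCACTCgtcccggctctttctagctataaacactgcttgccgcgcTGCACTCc
MT1X: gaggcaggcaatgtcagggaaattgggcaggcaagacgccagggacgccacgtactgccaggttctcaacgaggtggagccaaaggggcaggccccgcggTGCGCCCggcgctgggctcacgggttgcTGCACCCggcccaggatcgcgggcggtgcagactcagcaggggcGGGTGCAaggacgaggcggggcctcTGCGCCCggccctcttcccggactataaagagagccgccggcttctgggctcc
MT1H: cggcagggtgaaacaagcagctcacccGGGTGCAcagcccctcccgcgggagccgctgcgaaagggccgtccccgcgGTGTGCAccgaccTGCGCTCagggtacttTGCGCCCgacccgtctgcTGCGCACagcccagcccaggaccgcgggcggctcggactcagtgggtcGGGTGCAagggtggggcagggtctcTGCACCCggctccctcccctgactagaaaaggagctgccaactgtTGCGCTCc
The MT2A window held 7 matches, the MT1X window 4 and the MT1H window 8, and the MTF1 window, at chr1:37859593-37859842 on the minus strand, held 0. No 2 matches overlapped within a window. Of 35116 promoter windows of the same length, 24.8% held at least 1 match, 0.37% held at least 4, 0.0313% at least 7 and 0.0171% at least 8. A match is a stretch of letters and was not tested as a binding site. Among the 4 member windows, that of MT1H held the most matches. Its row was nearly empty in these libraries, but probes capture their targets with unequal efficiency. Numbers of matches were therefore not set against levels.

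**Figure D1:**
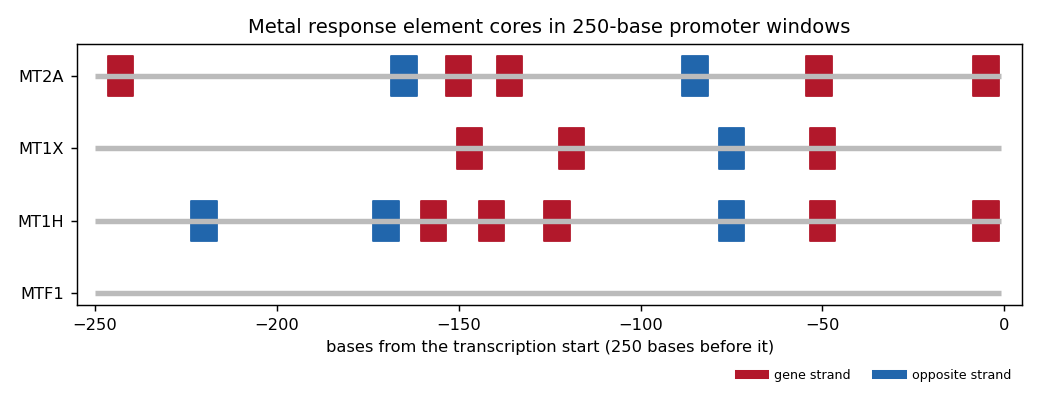
Positions of metal response element cores in the promoter windows of MT2A, MT1X, MT1H and MTF1, as distance in bases from the transcription start. Red blocks lie on the gene's strand and blue blocks on the opposite strand, and the grey line is the 250-base window. MT2A has 7 blocks, MT1X 4, MT1H 8 and MTF1 0.

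HepaRG is an established human liver cell line, and here it was thawed in its differentiated state and kept for a week before exposure. The 118 libraries fell into 40 groups, which are the 5 concentrations (C1, lowest, to C5, highest) of each test chemical, after 72 h with daily renewal of the chemical in induction medium. The groups had 3 libraries each, except C3 of panobinostat and C4 of trichostatin A, which had 2, and the replicates of a group came from 3 batches of HepaRG cells. Solvent controls were not used here, so C1 of the same chemical was the reference, and effects already present at C1 are not visible in the changes given. The tested ranges in µM were 0.041722 to 0.86 for apicidin, 0.177222 to 3.9 for mocetinostat, 0.001468 to 0.084 for panobinostat, 4.94 to 94.5 for scriptaid, 1.143333 to 44 for tacedinaline, 0.018811 to 1.5237 for trichostatin A and 0.404778 to 23.5 for vorinostat. The dose labels of valproic acid span 100.478 to 3038, and their unit is open because the treatment protocol gives far smaller numbers in µM. Vorinostat, trichostatin A, panobinostat and scriptaid are hydroxamic acids, mocetinostat and tacedinaline are benzamides, apicidin is a cyclic tetrapeptide and valproic acid is a branched fatty acid. Concentrations were not matched between chemicals, so values of related structures stand side by side below without a test of a structural difference.

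Expression was measured by TempO-Seq. In this assay 2 detector oligonucleotides anneal side by side on a target RNA in the lysate, are joined, and are amplified and counted. A library held 1061359 to 5250260 counts (median 3702007). Levels are given as raw counts or as CPM, which are counts scaled to a common library total. Probes capture their targets with unequal efficiency, so a CPM of 1 row was not compared with that of another. In bulk lysates, fewer cells with a transcript and less of it per cell cannot be told apart. Replicate 3 of scriptaid C4, of mocetinostat C2 and of trichostatin A C1 stood apart from their group mates. Their mean correlations were 0.803, 0.831 and 0.873, against a median of 0.956 over libraries. Each was the lowest of its group, and they were chosen after seeing the data. Replicate 1 was also low, at 0.862 in scriptaid C4 and 0.873 in mocetinostat C2, and was kept. Member changes that use the 3 libraries and are described singly are also given without them. This was done where the value moved by over 1.5 times or the call changed. Markers of hepatocytes were abundant at C1, where the summed CPM of ALB, APOA1, APOB, TTR, SERPINA1, CYP3A4, TF and FGB lay between 13930 and 71080. The lowest sum came from trichostatin A, whose C1 group includes 1 of the libraries that stood apart.

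MT2A had a mean of 412 CPM over the libraries, and its counts rose in 7 of the 8 chemicals. In mocetinostat its CPM was 62.3, 52.7 and 66.4 in the 3 libraries of C1 and 1097, 1272 and 1343 in those of C5. In tacedinaline the C1 libraries had 127, 91.5 and 156 CPM and the C5 libraries 1840, 1836 and 1836 CPM. In vorinostat the C1 libraries had 92.4, 67.8 and 127 CPM and the C5 libraries 1939, 2101 and 1964 CPM. In each of these chemicals the lowest C5 library lay far above the highest C1 library. A change was called when the adjusted p (edgeR quasi-likelihood F test, Benjamini-Hochberg adjustment over all features of the comparison) was under 0.05 and the fold change was at least 1.5. By this rule MT2A rose by 4.43 ± 0.25 on the log2 scale (± SE, adjusted p = 3.71e-09) in mocetinostat, by 3.94 ± 0.18 (adjusted p = 5.69e-22) in tacedinaline and by 4.49 ± 0.20 (adjusted p = 1.71e-18) in vorinostat. Those are folds of 21.5, 15.3 and 22.4.

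Apicidin and scriptaid gave the next rises. In apicidin MT2A had 55.3, 65.9 and 65.4 CPM at C1 and 723, 869.7 and 456 CPM at C5, a change of 3.46 ± 0.23 (log2, adjusted p = 1.34e-09). In scriptaid it had 158, 119 and 66.0 CPM at C1 and 939, 1166 and 631 CPM at C5, a change of 3.04 ± 0.45 (adjusted p = 5.76e-05). Neither chemical had overlapping libraries at C1 and C5, and the spread at C1 was wider in scriptaid. Panobinostat and valproic acid gave smaller rises. MT2A went from 114, 110 and 82.2 CPM to 272, 486 and 395 CPM in panobinostat, a change of 1.90 ± 0.22 (adjusted p = 2.25e-06). In valproic acid it went from 141, 125 and 126 CPM to 328, 345 and 334 CPM, a change of 1.36 ± 0.20 (adjusted p = 8.69e-05). In trichostatin A the C1 libraries had 99.3, 85.3 and 62.8 CPM and the C5 libraries 76.8, 202 and 140.5 CPM, so that the groups overlapped. Its difference of 0.78 ± 0.26 was not called (adjusted p = 0.389), and without the C1 library that stood apart it was 0.61 (adjusted p = 0.326).

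The background of rising calls at C5 differed between chemicals. Of all features tested, 13.8% were called as rising in apicidin, 14.8% in mocetinostat, 6.77% in panobinostat, 12.8% in scriptaid, 18.7% in tacedinaline, 0% in trichostatin A, 4.84% in valproic acid and 22.7% in vorinostat. Trichostatin A thus had no rising call at C5 in this test. Of the 12 member rows, 6 rose in each of apicidin, mocetinostat, tacedinaline and vorinostat and 5 in scriptaid, while panobinostat had 2 and valproic acid 1. No member rose in trichostatin A, where edgeR gave 2 of the 5 tested rows, MT2A and MT1M, an unadjusted p under 0.05, and DESeq2 also called 0. Each chemical's fit tested 6 of the 12 rows, or 5 in trichostatin A and valproic acid. Rows with few counts at C1, those of MT1A and MT1X, passed the filter on low counts largely through the groups in which they were high, so these counts are a description. All C5 libraries lay above all C1 libraries for 6 member rows in each of apicidin, mocetinostat, scriptaid, tacedinaline and vorinostat, for 3 in panobinostat, for 1 in valproic acid and for 0 in trichostatin A. The same held for 23.7% of all features tested in apicidin, 24.7% in mocetinostat, 24.9% in scriptaid, 23.4% in tacedinaline, 25.4% in vorinostat, 4.91% in trichostatin A, 16.8% in valproic acid and 20.9% in panobinostat.

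**Figure D2:**
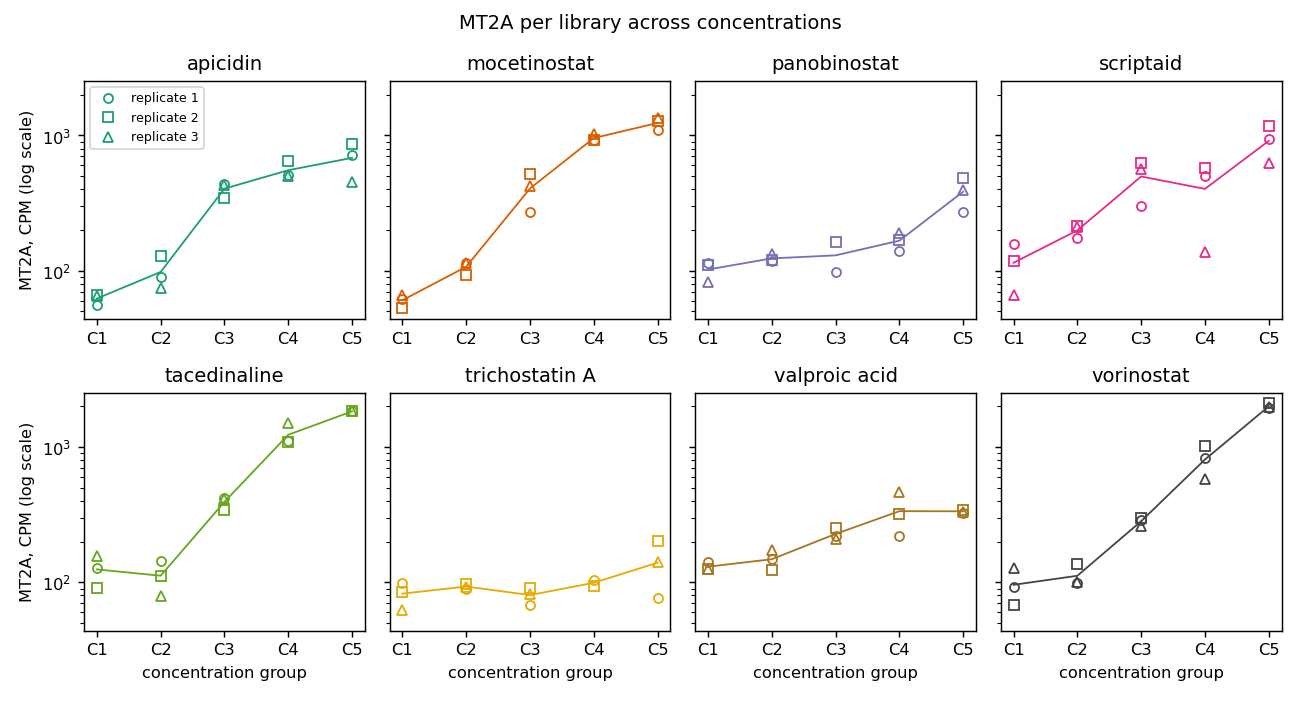
MT2A in every library, as CPM on a log axis, at the 5 concentrations of each chemical. Open symbols are libraries, with a shape for each replicate, and the line joins group means. Mocetinostat, tacedinaline and vorinostat reach 1097 to 2101 CPM at C5, while trichostatin A stays between 62.8 and 202 CPM throughout, and replicate 3 of scriptaid C4 lies apart at 138 CPM.

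MT2A rose between C1 and C3 in most of the responding chemicals. It was called from C3 in apicidin (0.3755 µM), mocetinostat (1.595 µM), scriptaid (44.46 µM), tacedinaline (10.29 µM) and vorinostat (3.643 µM), from C4 in valproic acid, where 5.51% of all features rose, and only at C5 (0.084 µM) in panobinostat. With the replicate number as a block, valproic acid was called from C3 (0.79, adjusted p = 0.0495, against 0.0653 without the block). The share of all features called as rising at C3 was 6.94% in apicidin, 6.44% in mocetinostat, 0.461% in scriptaid, 5.44% in tacedinaline and 3.18% in vorinostat, and it was 0.293% for valproic acid, 0.00763% for panobinostat and 0% for trichostatin A, where no member was called. Of the member rows, 5 rose at C3 in mocetinostat, 3 in each of apicidin, tacedinaline and vorinostat and 1 in scriptaid. Of these 15 calls, 6 were lost when a replicate was left out, among them MT2A in scriptaid and MT1A and MT1X in vorinostat. MT2A was among the few features called at C3 of scriptaid, with a change of 2.12 ± 0.43 (adjusted p = 0.016) that was not called without replicate 1 (adjusted p = 0.0629) or replicate 2 (adjusted p = 0.772). The C3 rise was 6.51-fold in apicidin (adjusted p = 9.12e-08), and the log2 changes of the others were 2.77 ± 0.23 in mocetinostat (adjusted p = 1.25e-06), 1.67 ± 0.17 in tacedinaline (adjusted p = 2.03e-10) and 1.59 ± 0.19 in vorinostat (adjusted p = 4.37e-07). At C4, 6 rows rose in each of apicidin and vorinostat, 5 in each of mocetinostat and tacedinaline, 3 in scriptaid, 2 in valproic acid and none in the remaining chemicals. Of these 27 calls, 8 were lost when a replicate was left out, namely MT2A, MT1M and MT1E in scriptaid, MT1E and MTF1 in both apicidin and vorinostat, and MT1M in valproic acid. Rising calls at C4 took 11.1% of all features in apicidin, 15.6% in vorinostat, 12.1% in mocetinostat, 16.3% in tacedinaline, 2.20% in scriptaid, 1.16% in panobinostat and 0% in trichostatin A. For MT2A the C4 libraries of scriptaid had 498, 572 and 138 CPM, the last being the library that stood apart. With it the C4 change was 1.82 ± 0.43 (adjusted p = 0.0185), and without it 2.18 (adjusted p = 1.14e-05).

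At C2 no member row was called by edgeR in any chemical, where the share of all features called as rising was 0.0708% in apicidin, 0.153% in mocetinostat, 0.297% in tacedinaline, 0.00860% in vorinostat and 0% in the others. By edgeR 5 of the 46 tests had an unadjusted p under 0.05 and DESeq2 called 2, both in mocetinostat. MT2A had 115, 92.7 and 113 CPM at C2 of mocetinostat, all above its C1 libraries, and its difference of 0.89 was just short of the call (adjusted p = 0.0854). Without the mocetinostat C2 library that stood apart MT2A was called there at 0.89 (adjusted p = 0.00742), and MT1M at 1.73 (adjusted p = 0.000186), the latter being 1.45 with it (adjusted p = 0.0506). Over the 5 concentrations together, the fitted change of MT2A from C1 to C5 was called in the same 7 chemicals and ranged from 1.47 ± 0.17 in valproic acid to 4.67 ± 0.30 in mocetinostat. By this trend 17.2% of all features rose in apicidin, 17.9% in mocetinostat, 8.06% in panobinostat, 6.83% in scriptaid, 21.8% in tacedinaline, 0.0154% in trichostatin A, 7.16% in valproic acid and 24.4% in vorinostat. Member rows that rose by trend numbered 6 in each of apicidin, mocetinostat, tacedinaline and vorinostat, 4 in scriptaid, 3 in each of panobinostat and valproic acid and 0 in trichostatin A.

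MT1M, a metallothionein 1 gene of the same cluster, was measured well above 0 in every library and rose in 6 chemicals at C5. In mocetinostat its raw counts were 54, 69 and 91 at C1 and 734, 819 and 763 at C5. In vorinostat they were 46, 68 and 88 at C1 and 230, 404 and 427 at C5 in shallower libraries, whose mean total was 3038905 counts at C1 and 1485592 at C5. In tacedinaline they were 27, 50 and 139 at C1 and 356, 571 and 564 at C5. The C5 libraries lay above the C1 libraries in all 3 chemicals, on the CPM scale as well. MT1M rose by 3.62 ± 0.30 on the log2 scale in mocetinostat (adjusted p = 2.46e-07), by 3.30 ± 0.28 in apicidin (adjusted p = 2.19e-08), by 3.29 ± 0.22 in vorinostat (adjusted p = 2.7e-14) and by 3.12 ± 0.24 in tacedinaline (adjusted p = 1.49e-14). The rises in scriptaid, 1.67 ± 0.38 (adjusted p = 0.0026), and panobinostat, 1.12 ± 0.23 (adjusted p = 0.00132), were smaller.

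In valproic acid MT1M was called at C4 (0.96 ± 0.24, adjusted p = 0.011) but not at C5, where its libraries had 290, 229 and 132 counts against 189, 94 and 162 at C1. The C4 call was lost without replicate 1 (adjusted p = 0.102) or replicate 3 (adjusted p = 0.0701). In trichostatin A MT1M had 97, 62 and 15 counts at C1 and 123, 151 and 49 at C5, and the lowest of each trio came from replicate 3, which at C1 was the library that stood apart. Its difference of 0.97 ± 0.43 was not called (adjusted p = 0.495), nor was it without that library, at 0.535 (adjusted p = 0.554). The scriptaid call at C4 (1.46 ± 0.38, adjusted p = 0.0322) was lost without the library that stood apart there (0.92, adjusted p = 0.0657).

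MT1E, which lies between MT2A and MT1M in the cluster, rose in 5 chemicals at C5. Its raw counts in tacedinaline were 55, 140 and 152 at C1 and 368, 490 and 442 at C5. In apicidin they were 228, 178 and 201 at C1 and 690, 605 and 729 at C5. MT1E had no overlap between C1 and C5 in these chemicals, or in mocetinostat, scriptaid and vorinostat. It rose by 2.48 ± 0.35 in mocetinostat (adjusted p = 5.29e-05), 2.21 ± 0.22 in vorinostat (adjusted p = 2.9e-10), 2.18 ± 0.18 in tacedinaline (adjusted p = 3.96e-13), 1.83 ± 0.23 in apicidin (adjusted p = 4.08e-06) and 1.18 ± 0.35 in scriptaid (adjusted p = 0.0158). In the other 3 chemicals its C5 difference was close to 0, with 0.03 ± 0.25 in panobinostat, 0.08 ± 0.20 in trichostatin A and -0.01 ± 0.21 in valproic acid. MT2A was called as rising in panobinostat and valproic acid, where MT1E was not, and the difference between the rows was not tested. At C3 of scriptaid the MT1E difference was 1.16 (adjusted p = 0.139), and with the replicate block it was called at 1.18 (adjusted p = 0.0499).

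MT1X, at the far end of the cluster, had few counts at C1, between 0 and 21 in any library. In vorinostat it had 6, 4 and 1 counts at C1, 15, 18 and 17 at C3 and 51, 73 and 81 at C5. In apicidin it had 6, 12 and 4 counts at C1 and already 56, 46 and 49 at C3. Its C5 libraries there had 115, 76 and 49 counts. MT1X rose at C5 by 5.05 ± 0.57 in vorinostat (adjusted p = 6.04e-09), 3.54 ± 0.51 in apicidin (adjusted p = 2.29e-05), 3.30 ± 0.51 in tacedinaline (adjusted p = 9.5e-07), 2.73 ± 0.79 in scriptaid (adjusted p = 0.0137) and 2.47 ± 0.47 in mocetinostat (adjusted p = 0.000748). In panobinostat (1.54 ± 0.70) and valproic acid (1.76 ± 0.80) the C5 difference was not called, and the libraries overlapped, but the trend over the 5 concentrations was called in both (adjusted p = 0.03 and 0.0247). In trichostatin A the difference was 0.41 (adjusted p = 0.944), and without the C1 library that stood apart it was 0.97 (adjusted p = 0.805). The vorinostat C3 call of MT1X (adjusted p = 0.00168) was lost without replicate 2 (adjusted p = 0.0783).

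MT1A had between 0 and 8 counts in each C1 library and rose in 5 chemicals at C5, by the probe that could be tested. It had 0 counts in all 3 vorinostat libraries at C1 and 28, 116 and 101 at C5, which is at least 41.0-fold higher when 3 counts per library are taken as the limit of C1. At C4 of vorinostat the counts were 5, 36 and 15, at least 5.90-fold higher. At C3 they were 3, 5 and 1, which on the CPM scale is 1.59-fold above the same limit of C1. These C3 counts are themselves near 3, so that value is not a firm bound. The vorinostat rise at C5 was called (adjusted p = 2.55e-10), and so was that at C3 (adjusted p = 0.0158), but the latter was not called without replicate 1 (adjusted p = 0.0697) or replicate 2 (adjusted p = 0.322). In mocetinostat the probe had 1, 6 and 3 counts at C1 and 159, 146 and 183 at C5, a change of 5.78 ± 0.49 (adjusted p = 2.46e-07). In tacedinaline it had 0, 8 and 3 counts at C1 and 116, 137 and 130 at C5, a change of 5.42 ± 0.54 (adjusted p = 3.78e-11). Apicidin (4.54 ± 0.67, adjusted p = 2.73e-05) and scriptaid (3.78 ± 0.70, adjusted p = 0.000541) followed. In these 4 chemicals and in vorinostat the MT1A change or bound was the largest among the tested rows, although differences between rows were not tested. The row had 0 to 8 counts at C1 and passed the count filter largely through the groups in which it was high. Its size and rank are therefore a description and rest on a reference close to 0.

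In panobinostat MT1A had 2, 0 and 2 counts at C1, 8, 5 and 13 at C4 and 3, 5 and 18 at C5, and was not called (adjusted p = 0.18 at C5). In trichostatin A its counts stayed between 1 and 7 in all libraries. In valproic acid they were 5, 0 and 0 at C1 and 7, 5 and 12 at C5, and both chemicals' fits left the row out for low counts. The second MT1A probe had at most 30 counts in a library and 0 in 81 of 118, so it was tested in no chemical's fit. Its counts summed over the 3 libraries of a group were 38 at C5 of mocetinostat, 28 at C5 of tacedinaline and 13 at C5 of vorinostat, against 0, 1 and 1 at C1 of the same chemicals. The single C5 libraries had 30, 0 and 8 counts in mocetinostat, 12, 3 and 13 in tacedinaline and 3, 3 and 7 in vorinostat. The summed counts of this probe in scriptaid were lower. They were 2 at C1 and 0 at C5 there, both under the limit of 3 counts per library. No direction was read for this probe in any chemical.

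**Figure D3:**
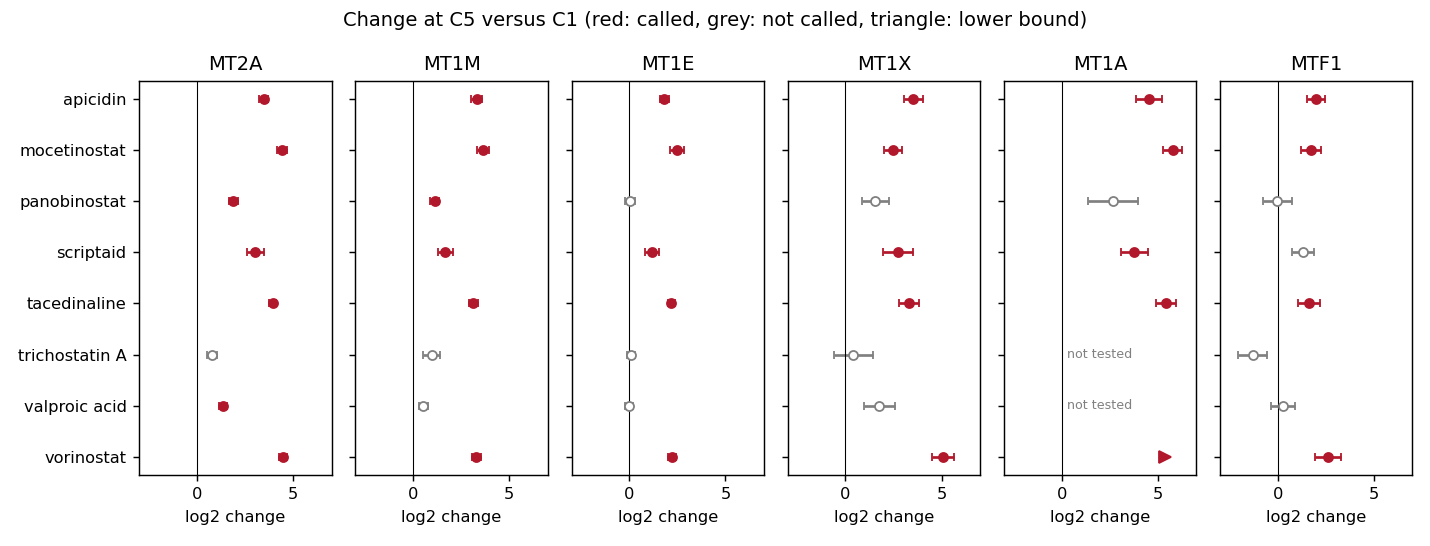
Log2 change at C5 versus C1 of the member rows tested in each chemical (6, or 5 in trichostatin A and valproic acid, where MT1A was left out), with the standard error of the fit as bar. Red points are called, grey points are not, and the triangle marks the lower bound of MT1A in vorinostat, where C1 held 0 counts. MT2A is called in 7 chemicals, MT1M in 6, MT1E, MT1X and MT1A in 5 and MTF1 in 4.

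The other metallothionein rows were at or near the limit of detection. MT1F had at most 21 counts in a library and 0 in 75 of 118. Its counts summed over a group were highest at C5 of apicidin and of scriptaid, with 25 each, against 6 and 0 at C1. The single C5 libraries had 6, 9 and 10 counts in apicidin and 0, 4 and 21 in scriptaid. MT1G had at most 25 counts and 0 in 100 libraries, and its largest group sum was 35, at C5 of mocetinostat, against 0 at C1. The libraries of that C5 group had 1, 9 and 25 counts. MT1H had at most 6 counts and 0 in 112 libraries. The MT3 probes had at most 2 and 4 counts and were at 0 in 117 and 95 libraries. A count of 0 in a library allows up to 3 counts, and no direction was given for any of these rows. Outside the members, the panel rows of MT1B, MT1L, MT1HL1 and MT4 were tested in no chemical either.

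MTF1, the zinc sensor itself, had low counts, from 1 to 75 per library, and rose in 4 chemicals at C5. In apicidin it had 18, 9 and 8 counts at C1 and 39, 53 and 35 at C5, a change of 1.97 ± 0.47 (adjusted p = 0.00328). In vorinostat it had 1, 6 and 13 counts at C1 and 12, 21 and 30 at C5, a change of 2.61 ± 0.69 (adjusted p = 0.002). The C1 and C5 libraries did not overlap on the CPM scale in either chemical. Mocetinostat (1.71 ± 0.52, adjusted p = 0.0188) and tacedinaline (1.61 ± 0.59, adjusted p = 0.0237) were also called. Except in vorinostat, these calls were lost when 1 replicate was left out, namely replicate 2 in apicidin, any replicate in mocetinostat and replicate 1 or 2 in tacedinaline. MTF1 was not called at C3 in any chemical, whereas MT2A was called at C3 in 5. The C3 difference of MTF1 ran from -0.67 ± 0.73 in trichostatin A to 0.98 ± 0.48 in apicidin (adjusted p = 0.183). These errors are wide because its counts were low, and the order of onset of the rows was not tested. In trichostatin A the MTF1 counts were 26, 5 and 30 at C1 and 4, 10 and 9 at C5, and the difference of -1.31 ± 0.76 was not called (adjusted p = 0.61). Without the C1 library that stood apart it was -0.78 (adjusted p = 0.757). In scriptaid its difference of 1.31 ± 0.59 was not called (adjusted p = 0.103), although the C5 libraries, with 26, 43 and 28 counts, all lay above those of C1, with 24, 21 and 10.

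**Figure D4:**
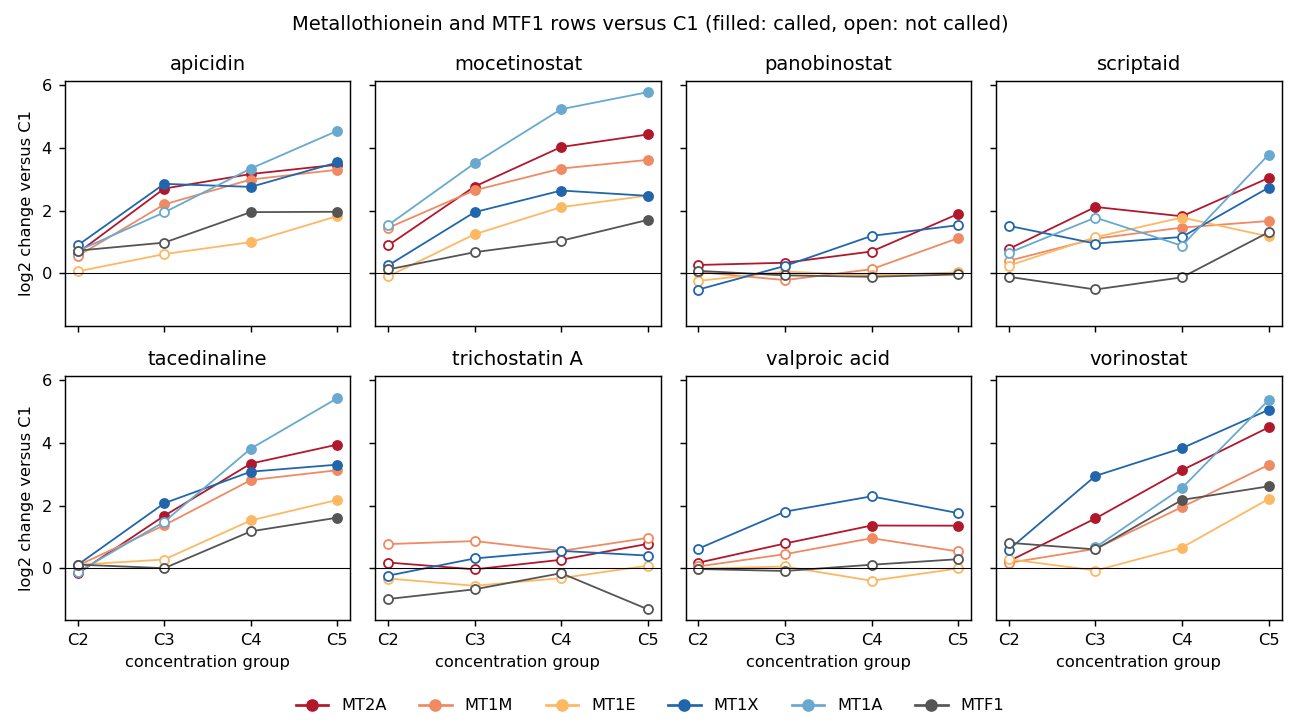
Log2 change versus C1 at C2 to C5 for the member rows tested in each chemical (6, or 5 in trichostatin A and valproic acid), with filled points for called changes and open points for others. MT1A in vorinostat is drawn at its lower bounds, of which that at C3 rests on libraries of 1 to 5 counts and is not firm. MT1A is left out in panobinostat, where C1 held 4 counts in all. No point is filled at C2, and MT2A is filled from C3 in apicidin, mocetinostat, scriptaid, tacedinaline and vorinostat.

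The size of the C5 change differed between chemicals for all 6 rows that were tested in a chemical's fit. In a model of all 118 libraries, the test of equal C5 changes in the 8 chemicals gave an adjusted p of 4.36e-16 for MT2A, 7.82e-12 for MT1M, 1.77e-11 for MT1E, 1.98e-05 for MT1A, 0.0112 for MT1X and 0.00582 for MTF1. Over all features 30.3% were called in this test. MT1F (adjusted p = 0.194) and the second MT1A probe (adjusted p = 0.152) passed the count filter of this model and were not called. The test compares the tested ranges, since the top concentration of each chemical was set separately. Among the hydroxamic acids the C5 change of MT2A was 4.49 ± 0.20 at 23.5 µM vorinostat, 3.04 ± 0.45 at 94.5 µM scriptaid, 1.90 ± 0.22 at 0.084 µM panobinostat and 0.78 ± 0.26 at 1.5237 µM trichostatin A. Among the benzamides it was 4.43 ± 0.25 at 3.9 µM mocetinostat and 3.94 ± 0.18 at 44 µM tacedinaline.

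The reference level at C1 was examined because every change above rests on it. Between the 3 HepaRG batches, no member row differed at C1, with adjusted p from 0.879 to 0.986 over the 5 rows tested and no unadjusted p under 0.05. Only 0.0837% of all features differed in that test. Mean MT2A over the 8 chemicals at C1 was 106 ± 36.2 CPM (SD, n = 8) in replicate 1, 89.6 ± 26.6 in replicate 2 and 93.9 ± 36.6 in replicate 3. Between chemicals, MT1E (adjusted p = 0.00241) and MT2A (adjusted p = 0.011) differed at C1, where 6.36% of all features did. Neither row was called in this test without replicate 1 or without replicate 2. The lowest C1 means of MT2A were 60.4 ± 7.05 CPM (SD, n = 3) in mocetinostat and 62.2 ± 6.00 in apicidin, and the highest was 130.5 ± 9.16 in valproic acid. For MT1E they ran from 36.6 ± 6.36 CPM in mocetinostat to 77.7 ± 3.16 in trichostatin A. Chemical, dose and, in part, plate cannot be told apart in this comparison, as scriptaid, tacedinaline and vorinostat lay on 1 plate and the others on another.

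Genes that share regulators or cargo with the metallothioneins were followed as lists. Over the 8 chemicals together, 11.6% of all C5 tests were called as rising and 13.4% as falling, and the counts of each list stand against these shares. Falling calls at C5 took 24.9% of all features in vorinostat, 20.1% in tacedinaline, 17.0% in scriptaid, 15.7% in mocetinostat, 15.0% in apicidin and 9.46% in panobinostat. They took 6.22% in valproic acid, and 0.0154% in trichostatin A. The median change of all features tested lay between -0.0018 and 0.084 in the 8 chemicals. Of 6 rows for MTF1 targets outside the family, 9 of 33 tests over the chemicals were called as rising and 4 as falling. SLC30A1, a plasma membrane zinc exporter, rose in 4 chemicals (range of the change over the 8, -0.36 to 1.25), and GCLC, the catalytic subunit for glutathione synthesis, rose in 5 (-0.26 to 1.95). SLC40A1, the iron exporter ferroportin, fell in 4 (-1.42 to -0.32). The median change of the list lay between -0.30 in trichostatin A and 0.68 in tacedinaline. A count of rises in it was not taken as a measure of MTF1 activity. Some genes stand in more than 1 list, and their calls count in each. GCLC is also among the NRF2 antioxidant targets, SLC30A1 among the zinc exporters and SLC40A1 among the iron-handling genes. TF is among both the iron-handling genes and the hepatocyte markers.

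The list of zinc exporters, taken by the family name SLC30, had 9 of 73 tests called as rising, a share near that of all features, and 5 as falling. Which metal each member carries was not examined. All 5 falls were SLC30A10 (-4.26 to 0.50), while SLC30A9 rose in 3 chemicals and SLC30A4 in 1. Among the importers 11 of 78 tests rose and 15 fell. SLC39A5, an epithelial importer, fell in 7 chemicals (-8.22 to 0.36) and SLC39A8 in 5 (-1.19 to 0.34), whereas SLC39A6 rose in 5 (-0.31 to 1.07) and SLC39A3 in 4 (0.21 to 2.03). Among copper genes 10 of 87 tests rose and 9 fell, which is also near the background of rising calls. The copper chaperone ATOX1 rose in 7 chemicals (0.34 to 1.94) and the copper-carrying plasma protein CP fell in the same number (-6.74 to -0.95), while the importer SLC31A1 fell in 2 and the pump ATP7A rose in 2. No iron-handling row rose, and 48 of 81 tests fell, among them transferrin TF and 1 HFE row in 7 chemicals each and the ferritin light chain FTL in 6.

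Lists were also followed for NRF2 antioxidant targets, glucocorticoid receptor targets and heat shock genes. Of NRF2 antioxidant targets 18 of 96 tests rose and 23 fell. SRXN1, which reduces oxidised peroxiredoxins, rose in 7 chemicals (0.55 to 2.85), and both rows of GCLM, the regulatory partner of GCLC, fell in 6. Of glucocorticoid receptor targets 13 of 96 tests rose and 19 fell, with TAT and ZBTB16 falling in 6 chemicals each, FKBP5 falling in 4 and 1 SGK1 row rising in 3. Of heat shock genes 14 of 80 tests rose and 3 fell, with HSPA1B rising in 5, DNAJB1 in 4 and HSP90AA1 in 2 while HSPB1 fell in 2.

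Markers of cell types were followed in the same libraries. Of hepatocyte markers, 60 of 72 tests were called as falling and 0 as rising. In valproic acid, where 1 member row rose at C5, 8 of 9 fell, and in trichostatin A none did. Their summed CPM lay between 43060 and 56860 at C1 and between 3119 and 4440 at C5 in tacedinaline. In vorinostat it lay between 38770 and 48220 at C1 and between 3510 and 6631 at C5. In panobinostat the sum was 43880 to 52660 at C1 and 23320 to 30120 at C5. In trichostatin A, where no member was called, it was 13930 to 57650 at C1 and 37590 to 49110 at C5. That C1 range includes the library that stood apart, and the range without it is not given. Of biliary-like markers 11 of 33 tests rose, led by SOX9 and SPP1 in 5 chemicals each. Both KRT19 rows were tested in all 8 chemicals. The first rose in 1 chemical (-0.966 to 0.965) and the second in none (-0.51 to 0.364). The KRT7, EPCAM and CFTR rows were in most or all chemicals too low to test. Of mesenchymal markers 8 of 64 tests rose and 27 fell. COL1A1 rose in 6 chemicals, while COL3A1 and ACTA2 fell in 7 each and 1 DCN row fell in 6. Of neuronal and glial markers 2 of 25 tests rose and 1 fell, all of them MAP2 rows, with the rows of GFAP, AQP4 and RBFOX3 tested in no chemical. Whether these shifts had a part in the metallothionein values was not tested.

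The rows whose level over the 118 libraries was most like that of MT2A were sought among 11283 features tested in all chemicals. By Pearson correlation of log2 CPM the closest rows of other genes were SRXN1 and HABP4 (r = 0.928 each), PCMT1 (0.914), DAD1 (0.914) and VCX3B (0.900). Among the members, r with MT2A was 0.892 for MT1M, 0.848 for the tested MT1A probe, 0.831 for MT1X, 0.703 for MT1E and 0.640 for MTF1. All values share libraries and the concentration gradient, so they are descriptions of likeness. Within single HepaRG batches, the C5 minus C1 difference of MT2A (log2 CPM) was positive in 3 of 3 batches in 7 chemicals, for example 4.13, 4.58 and 4.33 in mocetinostat and 1.25, 2.13 and 2.26 in panobinostat. In trichostatin A it was -0.37, 1.24 and 1.15, and the lone fall was in replicate 1.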

How the data were processed

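Counts were obtained with TempO-Seq in lysates of HepaRG cells, 118 libraries in 40 groups of chemical and concentration, per the labels. The authors deposited whole-number raw read counts per detector probe, not normalised, in 1 table of 22069 rows, of which 1 lacked 88 values and was left out. The submitters' processing notes name bcl2fastq 2.20.422, fastp 0.23.2, STAR 2.7.10b and DESeq2 1.38.0, without saying how each was used, and probe sequences and the counting rule for reads that fit several probes are not given in the sources used here. The groups, doses and HepaRG batches came from the labels. The library totals (1061359 to 5250260) set the precision. Limits from 3 counts cover only counting error, and no molecular identifiers are named in the sources used here.

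Separate models for the 8 chemicals were run with edgeR 4.0.16 (R 4.3.3), using filterByExpr, scaling by the trimmed mean of M values and quasi-likelihood F tests of C2 to C5 against C1 and of a slope on log2 concentration, expressed as the fitted difference between C5 and C1. Benjamini-Hochberg adjustment covered all features of a comparison, and calls required 1.5-fold or more with an adjusted p below 0.05. The standard error was taken as |log2 change| over the root of F. A model of all libraries tested whether the C5 changes were equal in the 8 chemicals, and the C1 libraries were compared between batches and chemicals. Tests of the batches measure the spread between cultures of 1 cell line. No batch term was included. Replicate numbers pair the libraries because the labels tie them to HepaRG batches, although deviations from the group mean correlated weakly, with a median of 0.0361 over 232 pairs of the same batch and -0.0154 over 464 of different batches. CPM used the same scaling over all libraries and a prior count of 2 on the log2 scale.

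Alternatives were a replicate block, RLE scaling, DESeq2 1.42.0, no count filter, each replicate left out, thinning to the smallest library, 1 fit of all libraries, rows summed per gene and, added after seeing the data, 3 libraries that stood apart left out. On simulated counts for tacedinaline at C5, with 11972 features run, 92 of 95 tested 4-fold changes (96.8%) and 39 of 97 tested 2-fold changes (40.2%) were called, with 4 false calls. The simulation gave all features the same fixed dispersion and changed only 100 features at each fold, far fewer than were called in the data. It is therefore no measure of power or of false calls for the member rows, least of all those with few counts. The members, the lists and the rule for named genes were chosen with earlier results of these data known. All member rows were named, together with the 5 rows most correlated with MT2A (the member row with the largest mean CPM, a rule of signal and not a comparison of transcript levels), and up to 4 rows of each list that were called in most chemicals in 1 direction. Of the lists, FTH1 and the pseudogenes MT1JP, MT1DP, MT1IP and MT1CP match no row.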

Additional observations from a re-analysis of the deposited data

Results flagged for a closer look

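The C5 change differed between the 8 chemicals for 6 member rows, by the quasi-likelihood test of equal changes in 1 model of all libraries. The adjusted p was 4.36e-16 for MT2A, where the log2 change ran from 0.78 in trichostatin A to 4.49 in vorinostat. It was 7.82e-12 for MT1M (0.54 in valproic acid to 3.62 in mocetinostat) and 1.77e-11 for MT1E (-0.01 in valproic acid to 2.48 in mocetinostat). It was 1.98e-05 for MT1A, 0.0112 for MT1X (0.41 in trichostatin A to 5.05 in vorinostat) and 0.00582 for MTF1 (-1.31 in trichostatin A to 2.61 in vorinostat). The top concentrations were not matched between chemicals, and 30.3% of all features were called in the same test.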

How the results depend on the processing

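Of 32 member changes called at C5, 26 kept their call in all 11 alternatives. The other 6 lost it only when a replicate was left out, namely MT1E, MT1M and MT1X in scriptaid and MTF1 in apicidin, mocetinostat and tacedinaline. Leaving out each replicate in turn gave 2 to 5 rising rows in scriptaid at C5 (5 with all replicates) and 1 to 2 in valproic acid (1). It gave 21 to 24 calls over all chemicals at C4 (27), 9 to 15 at C3 (15) and 0 to 2 at C2 (0). By trend it gave 1 to 2 rows in panobinostat (3), 1 to 4 in scriptaid (4) and 1 to 3 in valproic acid (3). Rows differing at C1 between chemicals numbered 0 to 3 (2), with 0 without replicate 1 and without replicate 2. At C2, 2 rows were called in 1 fit of all libraries, by DESeq2 and with the 3 libraries that stood apart left out, and 1 row without the count filter. Among the lists, leaving out a replicate gave 7 to 12 rising calls of biliary-like markers (11), 8 to 15 rising and 1 to 3 falling calls of heat shock genes (14 and 3), 7 to 8 rising calls of zinc importers (11), 5 rising calls of mesenchymal markers each time (8) and 1 to 2 rising and 0 falling calls of neuronal and glial markers (2 and 1). Thinned depth gave 1 falling heat shock call, 5 rising mesenchymal calls, and 1 rising and 0 falling neuronal calls. The fit of all libraries gave 5 rising mesenchymal calls and 1 rising and 3 falling neuronal calls, RLE scaling gave 1 rising neuronal call, and the libraries left out gave 2 falling ones. At C5, signs of member changes turned only for uncalled values, of 0.41 or less in size. MT1E in panobinostat (0.03) was -0.12 when thinned and -0.039 to 0.120 without a replicate, and in trichostatin A (0.08) it was -0.20 when thinned and -0.023 to 0.144. MT1E in valproic acid (-0.01) was 0.01 with the replicate block and -0.13 to 0.19 without a replicate, MT1X in trichostatin A (0.41) was -0.10 to 0.20 without replicate 2 or 1, 0.63 with the block and 0.97 without the library that stood apart, and MTF1 in panobinostat (-0.03) was -0.149 to 0.084. The cause of these shifts was not tested. With the replicate block the C5 change of MT2A was 4.42 in mocetinostat and 1.86 in panobinostat, and the block changed no member call at C5. It added 2 calls at C3, of MT1E in scriptaid and MT2A in valproic acid, and gave 4 rows by trend in panobinostat. Low counts limit MTF1, MT1X and MT1A. MT1G, MT1H and MT3 did not pass the count filter of any model, and MT1F and the second MT1A probe passed only that of all libraries together. The C1 reference hides any change complete at the lowest concentration.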
